A study of Mus musculus with 12 samples.

Results

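Muscle stem cells taken 21 days after muscle injury were compared with muscle stem cells taken 7 days after injury, to describe what is switched off and what is regained between these times. The comparison holds 8 of the study's 12 libraries, chosen by the day in their labels: 4 of day 7 and 4 of day 21. The other 4, taken before injury and called day 0 here, serve as the level before injury. The cells were sorted by flow cytometry from the tibialis anterior, gastrocnemius and quadriceps of C57BL/6J mice of 2 to 3 months, either wild type or with a Sestrin1,2 knockout, and bulk RNA was sequenced. Each day has 2 libraries labelled wild type and 2 labelled knockout. Sestrins are stress-induced proteins that sense leucine and restrain the growth kinase mTORC1. Tissue was minced and digested before the sort. The labels give no kind of injury, no sex, no gate of the sort, no tissue in which the genes were deleted, no batch and no number of mice per library. Nothing says that libraries of a group came from separate mice, so the p-values measure the spread between these libraries, which may be technical.

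Genotypes were pooled because transcripts of Sesn2, a targeted gene, went against 2 labels at day 21. Expression is given in CPM, the usual scale of counts relative to the scaled size of the library, and 4 values of a day stand in the order wild type 1 and 2, knockout 1 and 2, by label. Among day 7 libraries Sesn2 took the values 44.9, 47.4, 2.36 and 1.92 CPM and separated the labelled genotypes. The day 21 values were 8.92, 82.1, 9.86 and 108 CPM, low in the library labelled wild type 1 and high in the library labelled knockout 2. Transcripts of Sesn1, the other targeted gene, were at 84.0, 67.9, 28.4 and 22.4 CPM at day 7 and 43.7, 78.3, 41.7 and 67.2 CPM at day 21. No statement below separates the genotypes except by label.

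Muscle stem cells, or satellite cells, lie quiescent beside the muscle fibre and are marked by the transcription factor Pax7. After injury they enter the cell cycle, express Myod1 and Myf5, and either commit to differentiate, with Myog switched on before fusion into fibres, or withdraw from the cycle and return to quiescence. Notch signalling, contact with the basement membrane and cyclin-dependent kinase inhibitors are known to keep them at rest.

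The libraries held 28396780 to 38950514 estimated counts and 17292 to 18142 detected genes, and pairs of day 7 and day 21 libraries correlated across genes with r between 0.899 and 0.930, against 0.967 to 0.980 within day 7 and 0.966 to 0.974 within day 21. The day 21 library labelled wild type 2 stood apart from the other 3 of its day. Its Fmod, a matrix proteoglycan of tendon, was at 5445 CPM against 14463 to 17231 CPM in the others, and its summed transcripts of mitosis genes were 136, 328, 124 and 119.7 CPM in label order, highest in that library. For lists whose count moves by over 1.5 times without it, both counts are given.

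The sorted cells carried muscle stem cell markers and also markers of other cell types. Pax7 was at 34.97, 29.7, 23.1 and 26.3 CPM at day 7 and 35.6, 60.2, 26.2 and 16.95 CPM at day 21, overlapping between days (0.31 ± 0.33 on the log2 scale with its standard error, edgeR adjusted p = 0.46). The summed CPM of 8 muscle stem cell markers was 2091 to 2639.9 at day 7 and 2347 to 3335 at day 21, and 3 of the 8 rose while 3 fell, or 1 without the day 21 library labelled knockout 1 or without the 2 libraries against their label. Fibro-adipogenic markers summed to 5405 to 6956 CPM at day 7 and 10512 to 19302 at day 21, but only some members rose: 4 of 12 were called higher, among them the proteoglycan Dcn (2.82-fold) and the actin-severing Gsn (4.10-fold), and 3 lower (median -0.06 on the log2 scale). Tenocyte markers summed to 8284 to 10136 and 10492 to 29712 CPM, and 4 of 8 rose, or 7 without the day 21 library labelled wild type 2. Fmod, given above, made up a large part of the day 21 tenocyte sums. Chodl counts both as a tenocyte and as a muscle stem cell marker here. Schwann cell markers summed to 783 to 977 and 1656 to 2332 CPM with 8 of 9 up, among them the myelin gene Mbp (3.44-fold), and 1 down. Pericyte and smooth muscle markers summed to 3899 to 5870.5 and 6352 to 8709.7 CPM with 5 of 10 up and 2 down, the latter being 1 on leaving out either day 21 library labelled wild type, either day 7 library labelled knockout or wild type 2 of day 7. Red blood cell markers summed to 77.7 to 245 and 320.3 to 842 CPM. Of macrophage and myeloid markers, 8 of 13 fell and 2 rose, or 5 and 1 without the 2 libraries against their label, and the sum was 336 to 643 and 598 to 907 CPM. In contrasts within 1 labelled genotype, taken from a fit of all 8 libraries, 1 fell and 3 rose for knockout and 7 and 1 for wild type. The rising count was also 1 when any one library labelled knockout, or wild type 1 of day 7, was left out. Lyz2, which other cells also express, was at 241, 314, 368 and 260.3 and 857, 538, 757 and 535 CPM, the largest part of that sum, while the leukocyte marker Ptprc was at 3.52, 8.99999, 3.26 and 0.747 and 1.24, 1.56, 0.850 and 0.0629 CPM. Endothelial markers summed to 139 to 371 and 278 to 432 CPM with 2 of 12 up, keratinocyte markers to 36.7 to 56.7 and 66.9 to 127 CPM, lymphocyte markers to 2.88 to 4.24 and 3.27 to 5.50 CPM, and adipocyte markers to 0 to 0.422 and 0 to 13.3 CPM. The share of other cells in the sort is not known, and the part of these markers in the results below was not tested. In bulk RNA, fewer cells of a type and less RNA per cell cannot be told apart.

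**Figure D1:**
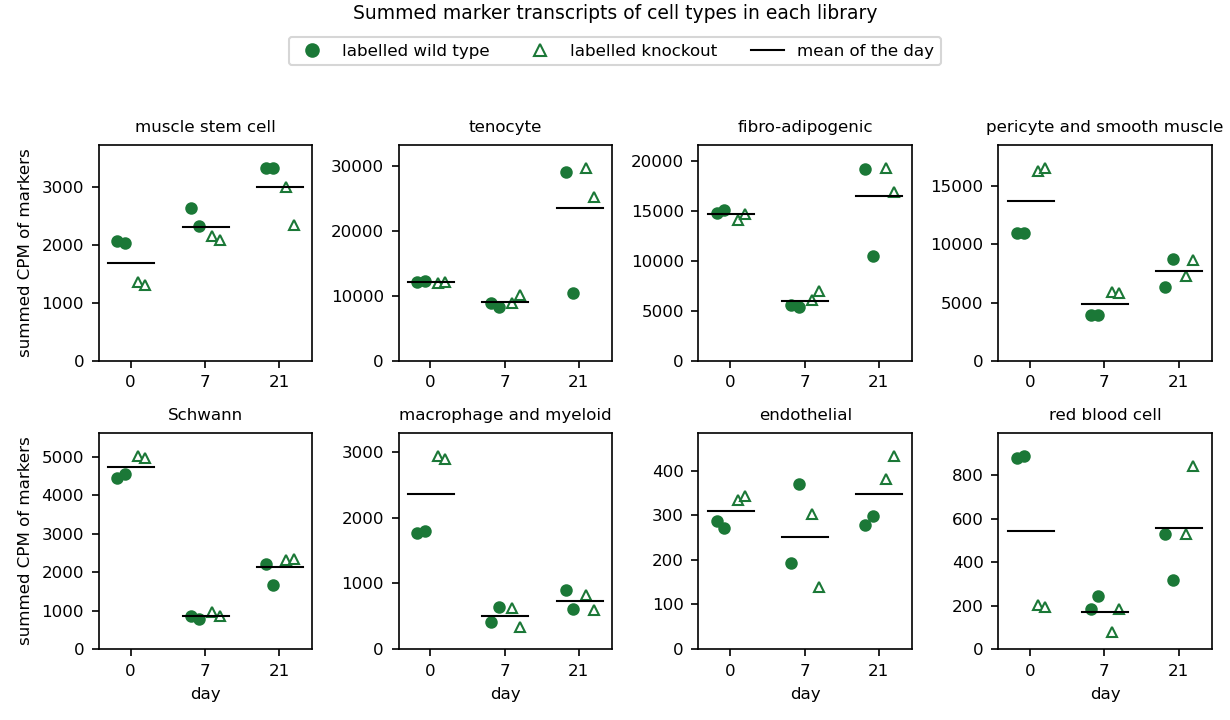
Summed CPM of the markers of 8 cell types (linear axes from 0) in each library at days 0, 7 and 21, with filled circles for libraries labelled wild type, open triangles for those labelled knockout and a line at the mean of the day. Fibro-adipogenic, tenocyte and Schwann sums were higher at day 21 than at day 7 in each library, and the lowest tenocyte value of day 21 is the library labelled wild type 2.

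Of 14632 genes tested between day 21 and day 7, 7670 (52.4%) were called at an adjusted p under 0.05 by edgeR's quasi-likelihood test, 3920 higher (26.8%) and 3750 lower (25.6%) at day 21. With a change of at least 2-fold as well, 2876 genes (19.7%) were called, 1690 higher and 1186 lower. The median change over all genes tested was 0.02 on the log2 scale. By limma on log2(TPM + 0.1) the balance was the other way, with 3006 genes higher and 4007 lower of 12779 tested. A list of genes is described below by how many of its tested members rose or fell, which can be read against 26.8% and 25.6% for all genes tested. Counts of day 21 against day 0 can be read against 25.0% higher and 20.8% lower for all genes tested in that comparison. Among the lists of pathways and cell states, leaving aside the markers of other cell types, the largest falls of medians were in mitosis, the sarcomere, DNA replication and myogenic commitment, and the largest rises in sterol synthesis, the circadian clock and immediate early genes.

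**Figure D2:**
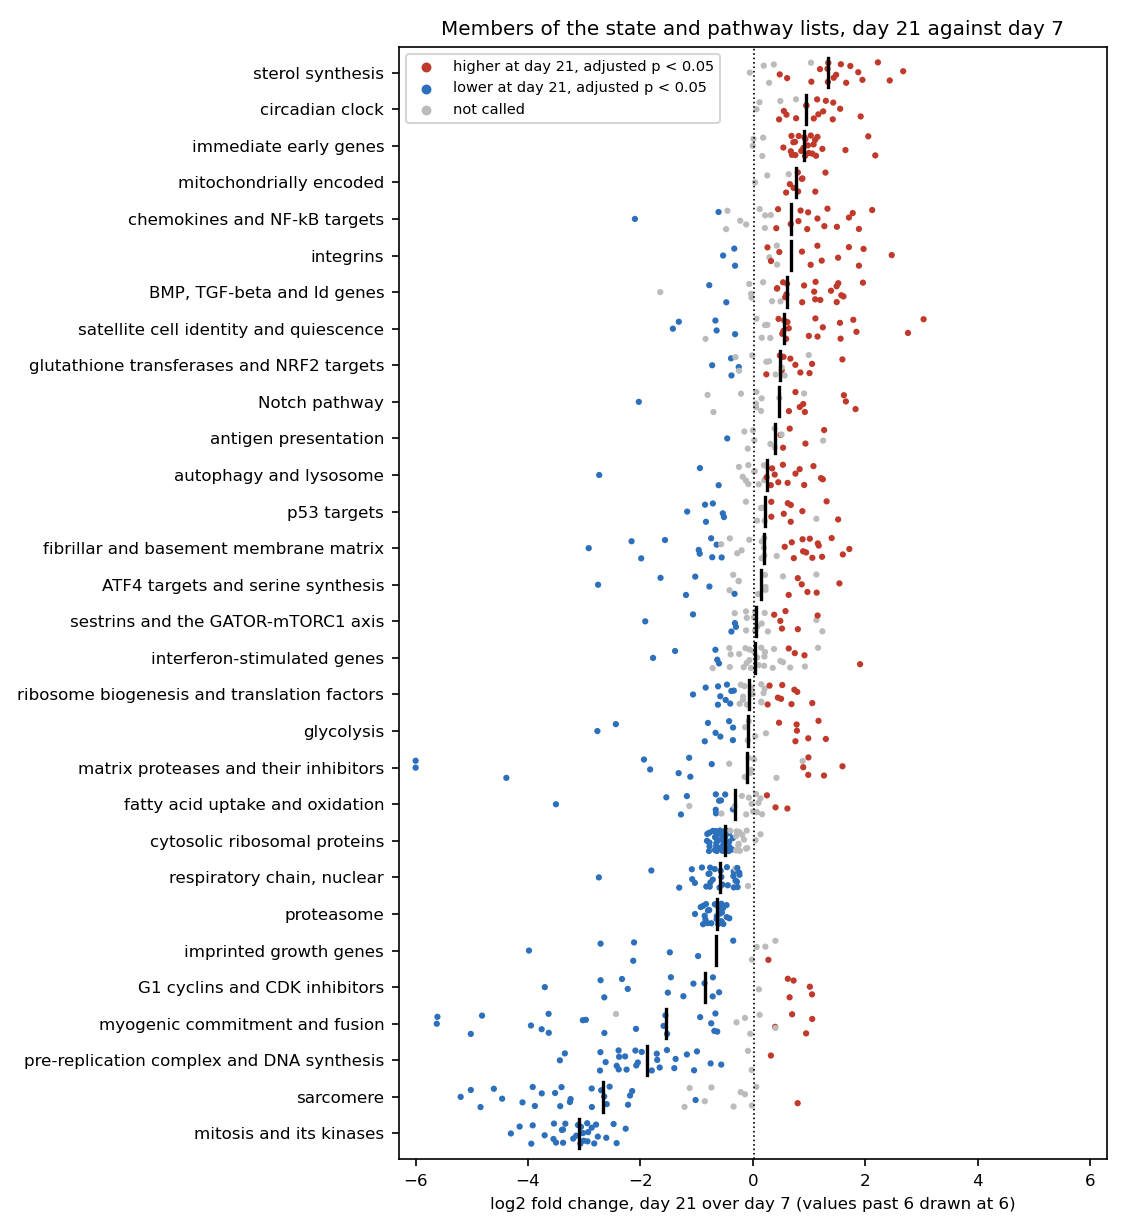
Each point is a gene of one of 30 lists of cell states and pathways, placed at its log2 fold change of day 21 over day 7 (horizontal axis), with black bars at list medians and a dotted line at the median of all genes tested (0.02). Red and blue points were called higher and lower; values past 6 are drawn at 6. The mitosis list lies wholly to the left with a median of -3.09, and the sterol list to the right with a median of 1.34.

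Genes of mitosis had the lowest median of the pathway and state lists. All 30 of 30 fell, each of the 30 without overlap between the 2 sets of libraries, where 49.4% of all genes tested did not overlap, and their median change was -3.09. Cdk1 (chr10:69335146-69352938, minus strand on GRCm38.p6 in GENCODE M21), the kinase that drives entry into mitosis, was at 69.9, 67.6, 68.4 and 77.5 CPM at day 7 and 2.86, 8.50, 2.29 and 1.92 CPM at day 21. It was 17.8-fold lower (log2 -4.15 ± 0.44 with SE, adjusted p = 8.2e-05), and the day 21 library labelled wild type 2 was the highest of its day. Its partner Ccnb1, a mitotic cyclin, was 15.1-fold lower, from 96.02 ± 16.04 to 6.22 ± 4.78 CPM (mean ± SD, n = 4). Aurkb, the kinase that corrects chromosome attachment, was at 49.0, 44.02, 46.4 and 38.6 CPM and then 1.42, 5.38, 0.960 and 0.975 CPM, a 19.8-fold fall. Top2a, which untangles replicated DNA, fell 10.5-fold, from 119.7 ± 4.77 to 11.1 ± 8.29 CPM (n = 4). Mki67, a coat protein of mitotic chromosomes and the usual marker of cycling cells, was at 73.2, 55.3, 42.6 and 61.7 CPM at day 7 and 7.38, 20.9, 6.65 and 6.10 CPM at day 21. Before injury the values were 5.31, 6.54, 4.803 and 6.22 CPM, and the day 21 library labelled wild type 2 again stood highest of its day. Without that library the falls were larger on the log2 scale, -4.89 for Cdk1, -4.62 for Ccnb1, -5.29 for Aurkb, -4.08 for Top2a and -3.10 for Mki67, against -2.48 for Mki67 with it. Against day 0, 7 of 30 mitosis genes were called higher at day 21, where 25.0% of all genes tested were, and 0 were lower, where 20.8% were. Top2a was 2.50-fold above day 0 (edgeR adjusted p = 0.011) and Prc1, which bundles the spindle midzone, 1.56-fold (edgeR adjusted p = 0.011). The Top2a value includes wild type 2 of day 21 at 23.5 CPM, with the other libraries of that day at 5.98 to 8.01 CPM.

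Genes of mitosis are known to be repressed in resting cells through a promoter element called CHR, often with CCAAT boxes upstream, bound by the DREAM complex. In RefSeq promoter windows on GRCm38.p6 (250 bases before to 50 after the start), 26 of the 30 genes matched, with 28 windows. CHR, searched on both strands as TTTGAA, was in 23 of them (82.1%), against 12% of the 13589 windows of tested genes. CCAAT, searched likewise, was in 25 (89.3%), against 37.2%. Both together were in 22 (78.6%), against 4.84%. To show how the letters are laid out, the 120 bases before the start are printed for the 4 genes with the smallest adjusted p of those with a CHR match in that stretch. Capitals mark CHR and CCAAT, written TTCAAA and ATTGG where they lie on the other strand. Ube2c, which helps mark cyclins for destruction, is at chr2:164769809-164769928 (plus strand) and fell 10.4-fold; Prc1 is at chr7:80294356-80294475 (plus strand) and fell 7.30-fold. Cdc20, which activates the anaphase-promoting complex, is at chr4:118437344-118437463 (minus strand) and fell 4.801-fold; Ect2, needed for cytokinesis, is at chr3:27153879-27153998 (minus strand) and fell 7.08-fold.
Ube2c: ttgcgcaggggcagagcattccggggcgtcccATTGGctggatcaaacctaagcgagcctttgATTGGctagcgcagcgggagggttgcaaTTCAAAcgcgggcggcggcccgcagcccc
Prc1: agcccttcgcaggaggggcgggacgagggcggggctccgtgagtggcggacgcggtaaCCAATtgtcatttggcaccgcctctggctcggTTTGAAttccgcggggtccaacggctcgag
Cdc20: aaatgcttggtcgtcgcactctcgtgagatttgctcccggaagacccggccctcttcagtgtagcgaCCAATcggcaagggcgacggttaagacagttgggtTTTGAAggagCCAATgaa
Ect2: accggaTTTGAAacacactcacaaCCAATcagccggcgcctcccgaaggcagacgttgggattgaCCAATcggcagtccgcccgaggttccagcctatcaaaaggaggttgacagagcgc
The first base of the CHR match lies at position -29 in Ube2c, -30 in Prc1, -18 in Cdc20 and -114 in Ect2 relative to the start. In Ect2 the CCAAT boxes lie downstream of the CHR match (the last at -55), unlike the layout named above. Cdc20 also has a CCAAT box downstream of its match, at -8. A match of letters is a description and does not show binding in these cells.

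Most genes of DNA replication fell too, with 3 exceptions. Of 30, 27 fell and 1 rose (not called without knockout 1 or wild type 1 of day 21, or without knockout 1, knockout 2 or wild type 2 of day 7), with a median of -1.89, and the summed CPM was 1946, 1841, 1955 and 1888 at day 7 and 977, 878, 940.3 and 978 at day 21. The day 21 sums lay at the day 0 level of 987, 948, 865 and 879 CPM. Tk1 (chr11:117815526-117826092, minus strand), the salvage kinase for thymidine, had one of the smallest adjusted p-values of all genes. It was at 25.5, 24.4, 28.8 and 26.8 CPM at day 7 and 2.57, 2.81, 2.29 and 2.52 CPM at day 21, 10.2-fold lower (log2 -3.35 ± 0.13, adjusted p = 1.1e-06). Rrm2, the subunit of ribonucleotide reductase made in S phase, was at 218, 198, 238 and 221 CPM and then 21.6, 20.9, 21.9 and 15.1 CPM, 10.8-fold lower. Its day 21 level did not pass the test against day 0 (log2 -0.08, adjusted p = 0.57), but the day 0 libraries themselves were split by labelled genotype, at 39.9, 35.6, 11.9 and 11.5 CPM. Of the MCM helicase that opens replication origins, Mcm2 fell 5.36-fold, Mcm3 4.13-fold and Mcm6 4.26-fold, Mcm6 being at 193, 194, 185 and 166 CPM and then 41.4, 49.1, 46.0 and 33.8 CPM. The sliding clamp Pcna was at 139.6, 130.5, 122 and 131.3 CPM at day 7 and 139, 119, 124 and 102 CPM at day 21 (log2 -0.09 ± 0.11, adjusted p = 0.51), and the large reductase subunit Rrm1 at 235, 223, 285 and 303 and 236, 159, 235 and 382 CPM (log2 -0.02 ± 0.23, adjusted p = 0.94). The libraries overlapped in both genes. Slbp, which binds histone mRNA, was the one member that rose (1.25-fold, adjusted p = 0.029), with overlap between days, and it was not called without the day 21 library labelled knockout 1. Replication genes are known targets of E2F factors, and an E2F site written as TTTCCCGC or TTTGGCGC was in 8 of 29 promoter windows (27.6%), from 24 matched genes, against 2.58% of all windows. Mcm6, at chr1:128359706-128359825 on the minus strand, has 2 such sites, in capitals.
Mcm6: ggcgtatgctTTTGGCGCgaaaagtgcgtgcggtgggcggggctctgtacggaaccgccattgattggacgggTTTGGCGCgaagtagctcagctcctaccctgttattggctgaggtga
CHR was in 10.3% of the replication windows, near its share of 12% in all windows.

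Genes that set the decision to enter the cycle moved in both directions. Of 19 G1 cyclins, CDK inhibitors, pocket proteins and E2F factors, 13 fell and 5 rose (median -0.86). The activator E2f1 fell 4.68-fold, from 26.5 ± 2.64 to 5.57 ± 1.29 CPM (n = 4), and E2f8, itself an E2F target, 13.01-fold. Cyclin E1 (Ccne1) fell 2.75-fold and Cdk4, the partner of D cyclins, 2.36-fold. The inhibitors moved apart. Cdkn1c (p57), which is known to rise as myoblasts leave the cycle to differentiate, was at 1429.8, 1303, 1028 and 966 CPM at day 7 and 131.04, 233, 137 and 210.4 CPM at day 21. That is 6.54-fold lower (adjusted p = 2.0e-05), with the lowest day 7 value above the highest day 21 value. Cdkn1b (p27), an inhibitor linked to quiescence, was at 10.2, 9.28, 13.6 and 13.02 CPM and then 19.1, 18.5, 30.5 and 23.5 CPM, 2.02-fold higher (adjusted p = 0.0017). Cdkn1a (p21) rose 1.54-fold and stayed 1.46-fold under its day 0 level (adjusted p = 1.8e-04). Among D cyclins, Ccnd2 rose 1.57-fold without overlap, and Ccnd1 rose 2.07-fold (adjusted p = 0.009) with 1 overlapping library, at 17.8, 15.8, 18.3 and 20.8 and 33.2, 41.9, 54.3 and 18.9 CPM.

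The programme of commitment and fusion was lowered. Of 30 genes, 20 fell and 4 rose, with a median of -1.54. Myog (chr1:134289989-134292548, plus strand), which drives differentiation, was at 1005, 893, 847 and 763 CPM at day 7 and 42.9, 114, 32.4 and 88.9 CPM at day 21. It fell 12.4-fold (log2 -3.63 ± 0.38, adjusted p = 7.8e-05), and the day 21 libraries labelled wild type 2 and knockout 2 were the higher pair of a day that lay wholly under day 7. The fusion proteins fell further: myomixer (Gm7325 in the table) was at 20.9, 26.9, 45.4 and 47.4 CPM and then 0.207, 1.19, 0.222 and 1.13 CPM, 49.3-fold lower, and myomaker (Tmem8c) fell 15.4-fold, from 226 ± 22.2 to 14.4 ± 7.997 CPM (n = 4). The acetylcholine receptor subunits Chrng, the fetal form, and Chrnd fell 48.9-fold and 28.2-fold, Chrng by -6.22 on the log2 scale without the day 21 library labelled knockout 2 against -5.61 with it, and the late factor Myf6 fell 12.4-fold from 10.3 ± 4.24 CPM at day 7 (n = 4). The earlier factors moved apart. Myod1, the master regulator of activated cells, rose 2.08-fold, from 151, 138, 138 and 124 CPM to 357, 183, 309.8 and 275 CPM (adjusted p = 9.7e-04), above every day 0 library (107, 125, 156 and 173 CPM). Myf5, its relative, fell 1.61-fold, from 98.7, 85.9, 87.6 and 93.0 to 65.1, 58.6, 58.4 and 41.1 CPM (adjusted p = 0.0021), yet stayed 2.15-fold above day 0 (adjusted p = 3.2e-05). Musk, the kinase of the neuromuscular synapse, rose 1.62-fold. Against day 0, 19 of 30 members were called higher at day 21 and 1 lower.

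Contractile genes fell with them. Of 34 sarcomere genes, 24 fell and 1 rose (median -2.67). Embryonic myosin Myh3 was at 142, 182.3, 358 and 295 CPM at day 7 and 1.33, 1.56, 0.850 and 22.5 CPM at day 21, 36.7-fold lower by the fit (adjusted p = 0.0024), and the library labelled knockout 2 held most of what was left at day 21. Without it the log2 change was -7.56, against -5.20 with it. Neonatal myosin Myh8 fell 22.03-fold, the slow troponin Tnni1 28.8-fold, the developmental troponin Tnnt2 24.4-fold, the fast light chain Mylpf 14.7-fold and cardiac actin Actc1, which is expressed in young myotubes, 32.4-fold. Actc1 was at 519.7, 552, 599 and 637 CPM and then 10.5, 25.2, 8.1996 and 26.1 CPM, and its day 21 values were split, with wild type 2 and knockout 2 above the other pair, as for Myog. Skeletal actin Acta1 fell 9.55-fold, from 1238 ± 374 to 128 ± 51.8 CPM (n = 4), and titin (Ttn) 9.47-fold. Of the adult fast myosins, Myh1 fell 5.85-fold, and Myh4 was at 66.7, 170.3, 288 and 118 CPM and 77.6, 46.4, 105 and 121 CPM with overlap (log2 -0.85 ± 0.43, adjusted p = 0.12). Against day 0, Myh1 was 25.8-fold and Myh4 24.2-fold higher at day 21, Acta1 3.46-fold and Mylpf 5.56-fold, and 20 of 34 members were higher in all. Tpm1, a tropomyosin that smooth muscle and fibroblasts also express, was at 725, 856, 1532 and 1377 and 1018, 1218, 1248 and 1123 CPM (log2 0.06 ± 0.22, adjusted p = 0.84). Myogenic factors bind E-boxes, here CAGCTG, which reads the same on both strands, or CAGGTG, and one was in 20 of 32 sarcomere windows (62.5%), from 27 matched genes, and in 9 of 22 commitment windows (40.9%), against 31.2% of all windows. The members of these lists with the smallest adjusted p of those with an E-box in the 120 bases before the start, 1 of commitment and 2 of the sarcomere, follow with the E-box in capitals (CACCTG is CAGGTG on the other strand): Tmem182, a membrane protein of muscle that fell 7.84-fold, at chr1:40805481-40805600, Tnnt2 at chr1:135836214-135836333 and Mylpf at chr7:127211488-127211607, all on the plus strand of GRCm38.p6.
Tmem182: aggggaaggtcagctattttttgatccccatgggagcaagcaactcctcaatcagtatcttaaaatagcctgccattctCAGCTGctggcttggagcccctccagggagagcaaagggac
Tnnt2: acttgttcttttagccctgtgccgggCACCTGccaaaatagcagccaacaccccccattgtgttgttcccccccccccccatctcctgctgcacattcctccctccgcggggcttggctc
Mylpf: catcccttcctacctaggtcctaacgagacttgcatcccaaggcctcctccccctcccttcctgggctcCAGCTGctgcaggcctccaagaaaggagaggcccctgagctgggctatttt

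**Figure D3:**
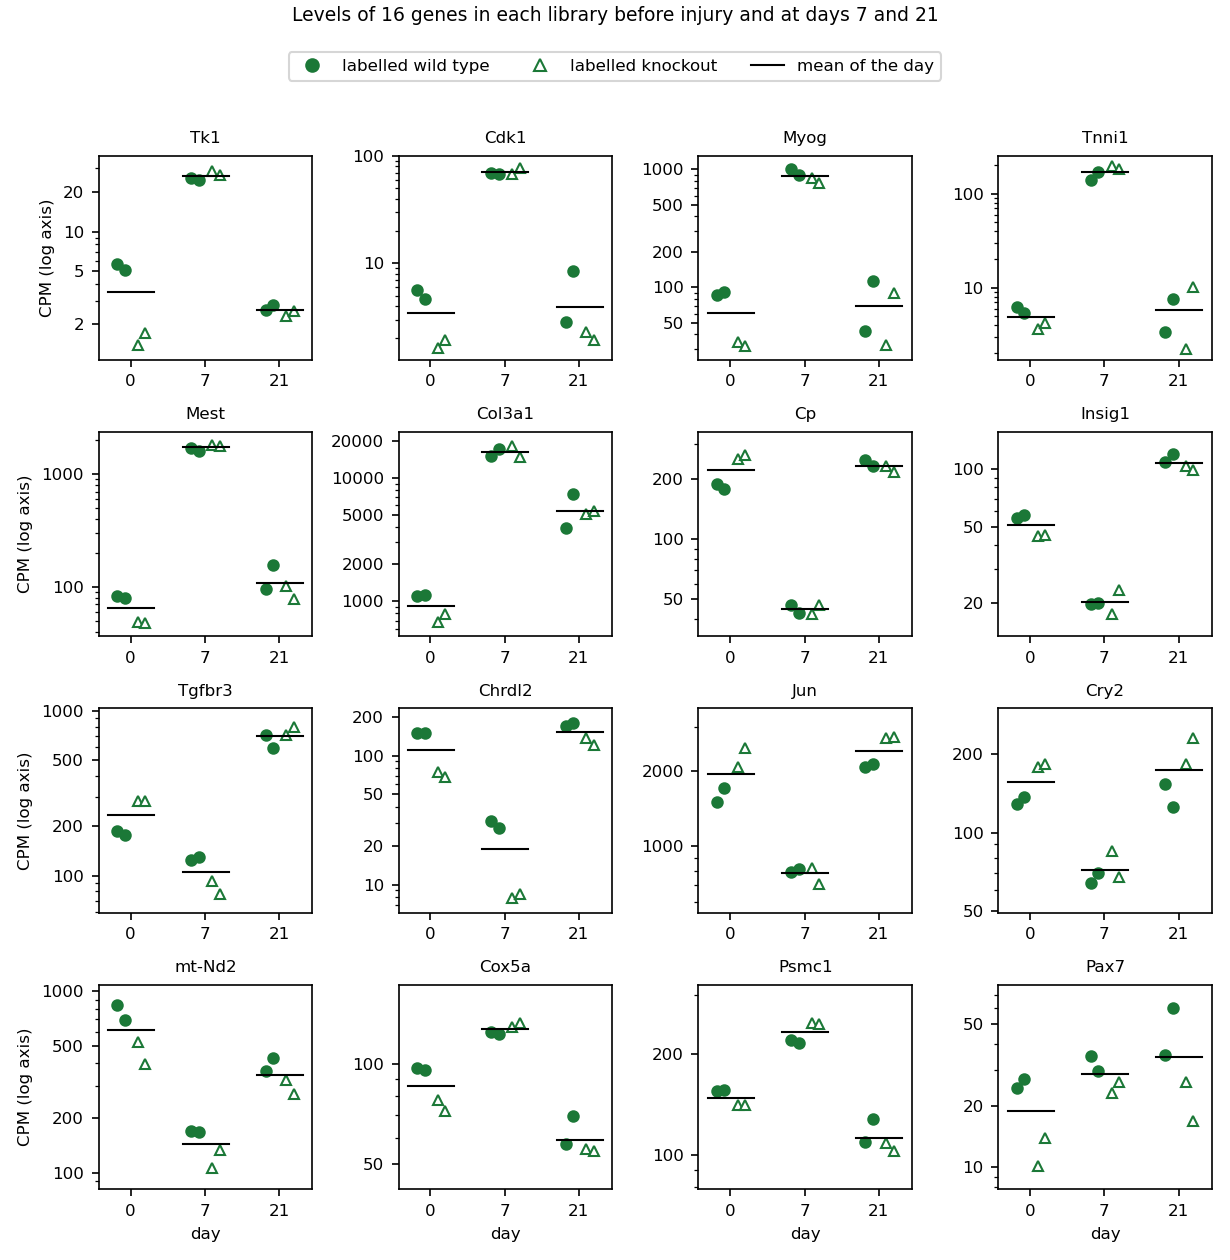
CPM of 16 genes in each library (log axes) at days 0, 7 and 21, with filled circles for libraries labelled wild type, open triangles for those labelled knockout and a line at the mean of the day. Tk1, Cdk1, Myog, Tnni1, Mest, Col3a1, Cox5a and Psmc1 were lower at day 21 than at day 7 in each library, Cp, Insig1, Tgfbr3, Chrdl2, Jun, Cry2 and mt-Nd2 were higher, and Pax7 overlapped.

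Imprinted growth genes, known for a shared fall as young tissues stop growing, fell in 7 of 12 tested cases, and 1 rose (median -0.66). Without the day 21 library labelled wild type 2 the counts were 6 and 0, and the riser was also lost without knockout 1, wild type 1 or wild type 2 of day 7. Mest (chr6:30723547-30748465, plus strand), a hydrolase-like protein and one of the genes with the smallest adjusted p, was at 1715, 1621, 1821 and 1777 CPM at day 7 and 95.04, 157, 101 and 78.1 CPM at day 21, 15.8-fold lower (log2 -3.98 ± 0.21, adjusted p = 5.9e-06). The growth factor Igf2 fell 4.33-fold, from 345, 326, 515 and 458 to 111, 92.1, 105 and 65.6 CPM, and Dlk1, a Notch ligand relative, 4.37-fold. Grb10, a brake on insulin signalling, fell 1.97-fold and remained 2.52-fold above day 0 (adjusted p = 1.1e-06). Peg3 was at 337, 318, 259 and 298 and 365, 409.6, 314 and 299.8 CPM (log2 0.22 ± 0.12, adjusted p = 0.16), and was 3.30-fold above day 0 at day 21 (adjusted p = 5.8e-07).

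Matrix genes moved in both directions. Of 35 fibrillar and basement membrane genes, 10 fell and 14 rose, and 27 of 35 were above day 0 at day 21 while 0 was below. Their summed CPM was 20327 to 26592 at day 0, 70607 to 79360.5 at day 7 and 43251 to 58800.4 at day 21. Cthrc1, a secreted protein of healing tissue, was at 166, 157, 125 and 157 CPM at day 7 and 20.3, 18.97, 21.6 and 17.6 CPM at day 21, 7.57-fold lower (adjusted p = 1.3e-06). Postn, which cross-links provisional matrix, fell 4.46-fold, from 8476, 8619, 6399.5 and 7345 to 1577, 2062, 1742 and 1415 CPM. Col3a1, the collagen of early scars, fell 2.96-fold, from 15037, 17272, 18103 and 14803 to 3905, 7353, 5082 and 5380.3 CPM, and stayed 6.0005-fold above day 0. Of the 2 chains of collagen I, Col1a1 fell 1.93-fold while Col1a2 was at 10367, 11018, 11192 and 10928 CPM and then 13573, 8345, 13685 and 13673 CPM (log2 0.20 ± 0.17, adjusted p = 0.33), lower in wild type 2 than in the other 3 libraries of day 21. Rising members included the laminin chain Lamb2 (3.29-fold), the cross-linking oxidase Loxl2 (3.03-fold, from 45.4, 50.5, 54.5 and 43.3 to 132.4, 137, 165 and 144 CPM) and thrombospondin Thbs1 (2.64-fold). Fibroblasts and tenocytes express many of these genes, and the sums of their markers were higher at day 21 than at day 7 (6008 ± 696 to 16456 ± 4119 CPM and 9088 ± 769 to 23610.2 ± 8971 CPM, mean ± SD, n = 4), where Col3a1, Postn and Cthrc1 were lower. The part of those cells in the matrix values was not tested.

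A few matrix proteases fell steeply, while the list as a whole was mixed. Of 22 proteases and inhibitors, 9 fell, 5 rose and 8 were not called (median -0.11), and the summed CPM was 6109, 6245, 8497 and 8172 at day 7 and 10710.4, 8355, 11892 and 13663 at day 21. Without the day 21 library labelled wild type 2, 8 fell and 7 rose. The collagenase Mmp13 was at 119.6, 106, 709 and 939 CPM at day 7, highest in the libraries labelled knockout, and at 3.46, 0.521, 1.59 and 1.35 CPM at day 21, 265-fold lower by the fit (log2 -8.05 ± 0.99, adjusted p = 1.8e-04). The log2 change was -7.45 without the day 7 library labelled knockout 2 and -8.67 without the day 21 library labelled wild type 1. No count was seen at day 0, so its day 21 mean was at least 18.5-fold higher than a floor of 3 counts per library. Mmp10, a stromelysin, was at 0.454, 0.466, 43.4 and 27.3 CPM at day 7 and at 0 in each day 21 library, and thus at least 188-fold lower at day 21 against that floor, or at least 98.8-fold without the day 7 library labelled knockout 1, but 2 of the day 7 libraries were under 1 CPM and its call was lost without the 2 libraries against their label (adjusted p = 0.068). The gelatinase Mmp9 fell 20.9-fold (log2 -4.39, or -3.77 without the day 7 library labelled knockout 1), from 7.87, 2.95, 29.9 and 17.7 to 0.0886, 1.33, 0.517 and 0.786 CPM. Mmp14, the membrane-anchored activator of other proteases, fell 2.19-fold, from 715 ± 33.0 to 320.5 ± 28.9 CPM (n = 4). The inhibitors crossed: Timp1 fell 3.55-fold, from 102, 96.9, 108 and 107 to 28.8, 20.2, 28.9 and 36.7 CPM, and Timp3 rose 3.02-fold, from 476, 449, 618 and 589 to 1624, 1018, 1721 and 1965 CPM. Adamts1, a protease of proteoglycans, rose 2.403-fold. Macrophages also make such proteases. Of their markers, the complement gene C1qa was at 6.84, 11.8, 8.37 and 2.403 CPM and then 0.0886, 1.33, 1.48 and 1.82 CPM, and Cd74, of antigen-presenting cells, at 103, 192, 159 and 38.8 and 37.2, 42.0, 43.8 and 32.1 CPM. The Cd74 call was lost without the 2 libraries against their label. Of all 13 macrophage markers tested, 8 fell and 2 rose, among them Lyz2 (log2 1.21), with counts that differed by label as given above. Their sum was 336 to 643 CPM at day 7 and 598 to 907 CPM at day 21. The part of macrophages in the protease values was not tested.

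Genes of satellite cell identity and quiescence rose more often than they fell. The median of the members was not below day 0 at day 7 (0.12 against day 0, and 0.61 at day 21). Their summed CPM was below it, at 5450 to 6689 at day 7 against 6860 to 7213 at day 0, and 8513 to 10437 at day 21. Of 28, 17 rose and 5 fell (median 0.55), and 14 rose without the day 21 library labelled wild type 2. Without the one labelled knockout 1, or without the 2 libraries against their label, 3 fell. Chrdl2, a BMP antagonist listed among quiescence genes, was at 31.1, 27.5, 7.87 and 8.41 CPM at day 7, lower in the libraries labelled knockout, and at 170.1, 179, 136 and 121 CPM at day 21. It was 8.21-fold higher (log2 3.04 ± 0.46, adjusted p = 5.5e-04), with no overlap. Tgfbr3, a co-receptor for TGF-beta, was at 124, 129, 92.3 and 77.3 CPM and then 708, 598, 715 and 795 CPM, 6.77-fold higher (adjusted p = 8.6e-06). It overshot its day 0 values of 187, 176, 284 and 283 CPM, being 3.09-fold above them (adjusted p = 1.1e-06). The calcitonin receptor Calcr, which restrains exit from quiescence, rose 2.95-fold, from 32.9, 30.7, 14.7 and 24.1 to 85.6, 101, 65.8 and 44.6 CPM (adjusted p = 0.0019). The surface proteins Sdc4 and Cd34 rose 3.45-fold and 1.99-fold, and the adhesion molecule Vcam1 rose 1.51-fold (adjusted p = 0.029) with overlap, its lowest day 21 value being in the library labelled knockout 2, but that call was lost in 14 of 24 alternatives. Foxo3, a transcription factor needed for quiescence, rose 2.37-fold to its day 0 range, from 7.35 ± 1.46 to 17.1 ± 2.51 CPM, with 18.1 ± 2.19 CPM at day 0 (n = 4 each). Nfix, a regulator of fetal myogenesis, fell 2.49-fold and ended 2.10-fold under day 0 (adjusted p = 1.0e-04). The growth factor Mdk fell 2.68-fold and the cadherin Cdh15 1.59-fold (adjusted p = 0.019), the latter with overlap and not called without the day 21 library labelled knockout 1. Spry1, a receptor tyrosine kinase inhibitor needed for return to rest, was at 199, 192, 152 and 147 CPM at day 7 and scattered at day 21, at 88.8, 345, 203 and 72.8 CPM (log2 0.06 ± 0.43, adjusted p = 0.91). Without the 2 libraries against their label it was called higher (log2 0.69, adjusted p = 0.042). Against day 0, 20 of 28 members were higher at day 21.

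Notch receptors and a ligand rose, and Notch targets were mixed. Of 19 genes of the pathway, 8 rose and 1 fell (median 0.47), or 8 and 2 without the day 21 library labelled wild type 2, and 2 fell without knockout 1 of that day. The receptor Notch1 was at 54.7, 50.8, 50.6 and 45.2 CPM at day 7 and 81.0, 95.5, 86.6 and 105 CPM at day 21, 1.86-fold higher (adjusted p = 9.0e-05). Notch2 rose 3.55-fold, from 21.8, 19.03, 16.8 and 20.1 to 51.3, 65.7, 61.8 and 92.3 CPM, and Notch3, also a pericyte marker, 3.07-fold. The ligand Jag1 rose 3.15-fold, from 32.03, 29.6, 37.6 and 30.04 to 74.8, 130.5, 88.0 and 107 CPM (adjusted p = 4.8e-05). Among targets, Hes1 rose 1.78-fold, from 40.3, 45.2, 56.7 and 48.2 to 68.4, 102, 92.7 and 71.0 CPM, and stayed 2.43-fold under its day 0 values of 214, 205, 193 and 199.995 CPM (adjusted p = 4.2e-05). The targets Heyl and Hey1, high in quiescent satellite cells, were at log2 0.05 ± 0.15 (adjusted p = 0.78) and 0.16 ± 0.13 (adjusted p = 0.34). Hes6, an antagonist of Hes1 that promotes differentiation, fell 4.08-fold, from 64.1, 62.8, 78.6 and 83.8 to 14.8, 21.1, 17.3 and 16.5 CPM. Of pericyte and smooth muscle markers, Myh11 was at 310.4, 349, 532 and 520.5 CPM at day 7 and 918, 1286, 1178 and 1375 CPM at day 21, and Acta2 at 2535, 2443, 3785 and 3885 and 3472, 4702, 3975 and 4291 CPM, and their part in the Notch values was not tested.

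BMP and TGF-beta genes rose broadly. Of 28, 19 rose and 2 fell (median 0.60), the latter count being 1 without knockout 1 of day 21, knockout 2 of day 7 or wild type 2 of day 7. The ligand Bmp4, among the 10 rising genes with the smallest adjusted p, was at 18.4, 18.2, 17.3 and 18.4 CPM at day 7 and 77.9, 65.6, 73.6 and 59.3 CPM at day 21, 3.89-fold higher (log2 1.96 ± 0.11, adjusted p = 6.6e-06). Its day 21 level differed from day 0 by log2 -0.19 (adjusted p = 0.09). The feedback inhibitors Smad6 and Bambi rose 2.81-fold and 2.62-fold, and Skil, a repressor of SMADs, rose 2.87-fold, from 168, 151, 103 and 117 to 386, 351, 391 and 391 CPM. The type I receptor Tgfbr1 rose 2.81-fold and overshot day 0 by 2.71-fold (adjusted p = 6.7e-06). Of the Id genes, which BMP induces, Id3 rose 1.35-fold, from 679, 648, 612 and 650.3 to 892, 876, 862 and 808 CPM, whereas Id1 was at 73.3, 73.8, 56.04 and 60.3 and 65.8, 63.3, 69.9 and 48.6 CPM (log2 -0.06 ± 0.14, adjusted p = 0.72) and Id2 at log2 -0.03 ± 0.19 (adjusted p = 0.9). Fstl1, a follistatin-like secreted protein, fell 1.71-fold. Fibroblasts and tenocytes express many of these genes too, and the part of their markers, whose sums were higher at day 21 although not all members rose, was not tested.

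Integrins, the receptors that bind the basement membrane, rose in 12 of 18 cases and fell in 3; without the 2 libraries whose Sesn2 goes against the label, 7 rose and 1 fell, and 1 fell without knockout 1 of day 21, wild type 1 of day 21 or knockout 1 of day 7 alone. Itgb4, the laminin receptor of hemidesmosomes and also of Schwann and epithelial cells, was at 14.8, 19.8, 28.6 and 16.3 CPM at day 7 and 89.0, 92.4, 85.0 and 168 CPM at day 21, 5.54-fold higher (adjusted p = 1.0e-04). The TGF-beta activating integrins Itgb8 and Itgav rose 3.91-fold and 2.86-fold, and Itga8 rose 3.27-fold, from 106, 105, 118 and 114 to 309, 330.0, 354 and 436 CPM. Itga7, the laminin-binding integrin of muscle and a marker used to sort satellite cells, fell 1.25-fold (adjusted p = 0.041) with overlap, and the fibronectin receptor Itga5 fell 1.44-fold (adjusted p = 0.035), also with overlap. Their calls were lost in 10 and 7 of 24 alternatives. The Schwann marker sum was 871 ± 80.0 CPM at day 7 and 2135 ± 323 CPM at day 21 (mean ± SD, n = 4), and its part in the Itgb4 value was not tested.

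Immediate early genes, many of which code for transcription factors switched on within minutes of a stimulus, rose as a group. Of 29, 25 rose and 0 fell, with a median of 0.92, and their summed CPM was 12887 to 14139.6 at day 7, 25843 to 28270.4 at day 21 and 25339 to 31513 at day 0. Jun was at 791, 813, 820.1 and 707 CPM at day 7 and 2079, 2136, 2697 and 2730.4 CPM at day 21, 3.13-fold higher (adjusted p = 1.3e-05). Its partner Fos was at 1969, 1984, 1772 and 1680.5 CPM and then 3561, 4352, 3952 and 3529.6 CPM, 2.11-fold higher, without overlap. Egr1 rose 2.22-fold, Atf3, a stress-induced repressor, 1.90-fold, and Ier2 1.76-fold. Hspa1a, an inducible heat shock protein with the near-identical copy Hspa1b, between which reads could be split, was at 90.8, 101, 141 and 118 CPM and then 517, 358, 652 and 475 CPM, 4.52-fold higher (adjusted p = 3.4e-05). Myc rose 1.61-fold, from 778 ± 72.4 to 1231 ± 173 CPM (n = 4), and was 1.54-fold above day 0. Against day 0, 8 of 29 members were higher and 9 lower at day 21, where 25.0% and 20.8% of all genes tested were. The time taken by digestion and sorting on each day is not given in the labels.

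Chemokines and NF-kB targets rose in 15 of 25 cases and fell in 2 (median 0.67), or in 1 without wild type 1 of day 21, without knockout 1 of day 7 or without the 2 libraries against their label. Nfkbiz, a nuclear partner of NF-kB, was at 265, 287, 305 and 285 CPM at day 7 and 863, 1101, 978 and 908 CPM at day 21, 3.42-fold higher (log2 1.78 ± 0.10, adjusted p = 7.0e-06). Tnfaip3, a feedback inhibitor of NF-kB, rose 4.35-fold, from 36.9, 44.5, 56.5 and 39.4 to 169, 216, 173 and 202 CPM. The eosinophil chemokine Ccl11 rose 3.70-fold, and the adhesion molecule Icam1 2.82-fold (adjusted p = 0.0012), at 493, 229, 534 and 523 CPM at day 21 and lowest in wild type 2. Cxcl9, which interferon-gamma induces, fell 4.28-fold, from 33.8, 40.97, 31.5 and 26.3 to 9.21, 7.55, 8.31 and 5.32 CPM. Il6 was at log2 -0.23 ± 0.19 (adjusted p = 0.34). Of 34 interferon-stimulated genes, 4 rose and 5 fell, a share of calls under the background. Without wild type 2 of day 21 the counts were 8 and 3, and without knockout 2 of day 21 9 and 3. The falling count was also 3 without knockout 2, wild type 1 or wild type 2 of day 7. The 4 libraries of day 21 differed: their summed CPM was 5072, 2967, 4906 and 2476 in label order, against 2811, 3003, 2668 and 2622 at day 7. The library labelled wild type 1 and the one labelled knockout 1 stood above the other pair, and they also had the lower Sesn2 values given above. Parp14, of this list, was at 12.03, 14.8, 12.6 and 14.9 CPM and then 69.3, 29.5, 62.0 and 39.3 CPM (3.75-fold higher, log2 1.91, adjusted p = 2.5e-04, and log2 1.16 with an offset for gene length), and Irf1, a first responder to interferon, rose 1.89-fold. The class I antigen gene H2-K1 was at 237, 288, 266 and 245 CPM and then 851, 365, 815 and 416 CPM, split the same way (2.41-fold higher, adjusted p = 0.0035). Of 15 antigen presentation genes 5 rose and 1 fell. The rising count was 8 without wild type 2 of day 21, but 3 without the 2 libraries against their label. It was 1 in the contrast of libraries labelled wild type only and 0 in that of libraries labelled knockout only.

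Circadian clock genes rose in 15 of 19 cases and fell in 0 (median 0.95). Cry2, a repressor of the clock, was at 64.0, 70.1, 84.6 and 67.7 CPM at day 7 and 154, 126, 183 and 231 CPM at day 21, 2.46-fold higher (adjusted p = 2.5e-04). Its partner Per2 rose 2.38-fold, from 16.8, 16.9, 16.04 and 13.5 to 39.9, 28.5, 42.1 and 37.4 CPM, the nuclear receptor Nr1d2 2.68-fold, from 87.9, 87.4, 79.7 and 81.3 to 254, 177, 246 and 208 CPM, and the output factor Dbp 2.69-fold (adjusted p = 0.0019). The activator Arntl was at 42.0, 41.8, 38.4 and 41.2 CPM at day 7 and scattered at day 21, at 26.3, 52.5, 34.4 and 61.5 CPM (log2 0.12 ± 0.23, adjusted p = 0.69). Day 0 values of Dbp were 75.3, 77.5, 3.83 and 4.31 CPM, split by labelled genotype. The hour of collection is not given in the labels, so day and hour cannot be told apart for these genes.

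Sterol synthesis showed the highest median of the pathway and state lists, the marker lists of other cell types left aside. Of 22 genes, 17 rose and 0 fell (median 1.34), and the summed CPM was 556, 489, 595 and 578 at day 7 and 1482, 1598, 1415 and 1848 at day 21, with 1402, 1432, 1085 and 1087 at day 0. Insig1 (chr5:28071363-28078662, plus strand), the sterol-sensing anchor whose gene is a target of SREBP2, was at 19.8, 19.99, 17.5 and 23.4 CPM at day 7 and 108, 119, 103 and 98.2 CPM at day 21, 5.41-fold higher (log2 2.43 ± 0.11, adjusted p = 3.1e-06). It also exceeded its day 0 values of 55.2, 57.7, 44.8 and 45.1 CPM, by 2.12-fold. Along the pathway, Hmgcs1 rose 3.16-fold (49.1, 39.5, 46.1 and 51.4 to 146, 139.8, 136 and 157 CPM), Idi1 3.67-fold and the epoxidase Sqle 3.86-fold. Srebf2, which codes for SREBP2, rose 2.52-fold, from 42.5, 32.2, 43.0 and 35.3 to 53.5, 72.5, 98.1 and 156 CPM (adjusted p = 0.0035). Hmgcs1 and Idi1 ended at log2 0.14 (adjusted p = 0.25) and -0.14 (adjusted p = 0.43) against day 0. CCAAT, where NF-Y binds beside SREBP, was in 14 of 17 sterol windows (82.4%), from 14 matched genes, against 37.2% of all windows.

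The respiratory chain moved in opposite directions by genome. Of 12 tested genes of mitochondrial DNA, 9 rose and 0 fell (median 0.76), whereas of 32 nuclear subunit genes 0 rose and 30 fell (median -0.58). The nuclear count was 20 without the 2 libraries against their label. Mitochondrially encoded transcripts summed to 8924, 8880.5, 5358 and 7544 CPM at day 7 and to 14958, 14773, 11403 and 10385 CPM at day 21, with 23540.0, 21766, 17542 and 15205 CPM at day 0. Nuclear ones summed to 8315, 8120.3, 8893 and 8510.0 and 6045, 6865, 6012 and 5714 CPM, with 8307, 8361, 8599.6 and 8347 CPM at day 0. The complex I gene mt-Nd2 was at 169.6, 168, 105 and 133 CPM and then 363, 429, 324 and 270.0 CPM, 2.45-fold higher (adjusted p = 3.3e-04), and mt-Nd4 and the oxidase gene mt-Co1 rose 2.16-fold and 1.83-fold. The nuclear oxidase subunit Cox5a was at 125, 123, 129.6 and 133 CPM and then 57.4, 69.7, 55.3 and 54.6 CPM, 2.12-fold lower (adjusted p = 2.7e-05). Atp5o, of the ATP synthase, and Sdhd, of complex II, fell 2.11-fold and 2.04-fold. Against day 0 both genomes were lower at day 21, in 11 of 12 mitochondrial and 30 of 33 nuclear genes.

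**Figure D4:**
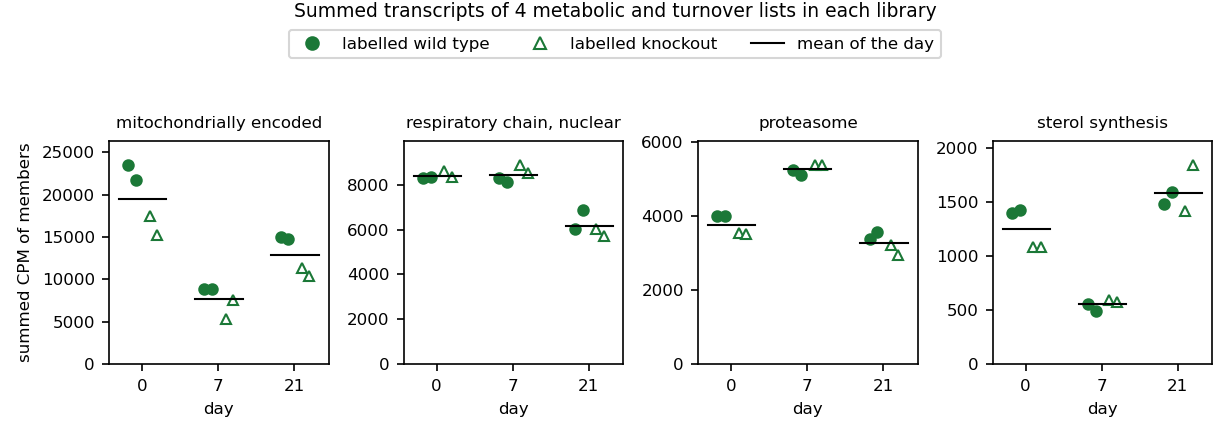
Summed CPM of the members of 4 lists (linear axes from 0) in each library at days 0, 7 and 21, marked by labelled genotype, with a line at the mean of the day. From day 7 to day 21 the mitochondrially encoded and sterol sums were higher in each library, and the nuclear respiratory and proteasome sums were lower.

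Protein turnover and carbon metabolism were lowered in part. All 27 of 27 proteasome genes fell (median -0.64), Psmc1, an ATPase of the regulatory particle, from 220.4, 216, 248.4 and 247 to 109.6, 128, 108 and 103 CPM (2.04-fold, adjusted p = 3.6e-05), and 21 of 27 were below day 0. Of 57 cytosolic ribosomal protein genes 41 fell and 0 rose (median -0.50), but 26 fell without the 2 libraries against their label. In the contrast of libraries labelled wild type only, 25 fell. Rps24 fell 1.76-fold (adjusted p = 0.004). Ribosome biogenesis was mixed, with 9 up and 10 down of 32, a share near the background. In glycolysis 7 rose and 9 fell of 21: the muscle isoforms Eno3 and Pgam2 fell 6.80-fold and 5.42-fold, while the glucose transporter Slc2a1 rose 2.46-fold, from 58.2, 56.6, 76.1 and 70.2 to 169, 139, 167 and 156 CPM, and Pdk4, which closes pyruvate entry into mitochondria, 2.25-fold. Fatty acid oxidation had 3 up and 11 down of 27, with 1 up without wild type 1 of day 21, wild type 1 of day 7 or wild type 2 of day 7. Of glutathione and NRF2 genes, 10 rose and 4 fell of 23. The transferase Gstm1, of a family of close paralogs among which reads could be split, was at 136, 128, 151 and 153 CPM and then 467, 429, 404 and 384 CPM, 3.02-fold higher (adjusted p = 7.0e-06), and the secreted peroxidase Gpx3 rose 2.01-fold.

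Genes of stress and growth control rose and fell, in some lists about as often as all genes tested. Of 21 p53 targets, 9 rose and 6 fell: the reductase subunit Rrm2b rose 2.86-fold, from 5.67, 7.03, 7.07 and 7.60 to 16.5, 18.7, 19.9 and 21.99 CPM, the stress cytokine Gdf15 2.48-fold, and the death gene Pmaip1 fell 2.25-fold. Of 22 ATF4 targets, 6 rose and 6 fell, shares near the background. The serine synthesis enzymes Psat1 and Phgdh fell 3.12-fold and 2.04-fold, with Psat1 at 116, 103, 113 and 116 CPM and then 35.6, 43.8, 36.2 and 25.1 CPM, and asparagine synthetase Asns fell 2.28-fold. The amino acid transporter Slc38a2 rose 2.91-fold, from 606, 608, 746 and 712 to 2073, 1493, 2336 and 1731 CPM. Of 27 autophagy and lysosome genes, 13 rose and 3 fell, or 8 and 3 without the 2 libraries against their label. The autophagy receptor Sqstm1 rose 2.32-fold, from 1350.2, 1326, 1655 and 1583 to 3931, 2374, 3984 and 3178 CPM, and Foxo1 2.11-fold, while Trim63, a muscle ubiquitin ligase, fell 6.65-fold. On the sestrin and mTORC1 axis 6 rose and 5 fell of 24, a share near the background, and 3 and 2 without those 2 libraries. Leaving out only the day 21 library labelled knockout 2 left 3 up, and the falling count was 2 to 4 over the 8 fits that leave out 1 library, being 3 without wild type 2 of day 21. Sesn3, the sestrin not targeted, was at 5.86, 4.94, 8.25 and 7.34 CPM at day 7 and 2.36, 1.504, 1.44 and 1.54 CPM at day 21, 3.77-fold lower (adjusted p = 1.9e-04). Sesn2 was at log2 1.13 ± 1.13 (adjusted p = 0.43) and Sesn1 at 0.21 ± 0.41 (adjusted p = 0.7), over libraries of both genotypes. The count of Mtor itself was 2.22-fold higher (log2 1.15 ± 0.17, adjusted p = 3.5e-04), at 17.6, 15.3, 22.4 and 17.7 CPM at day 7 and 34.5, 35.7, 36.6 and 52.8 CPM at day 21, but with an offset for gene length the change was log2 -0.07 (adjusted p = 0.71), and the authors' TPM averaged 9.41 and 8.47. Eif4ebp1, the translation repressor that mTORC1 inactivates, fell 2.09-fold, from 79.7, 72.1, 74.9 and 77.0 to 41.4, 30.8, 38.1 and 32.3 CPM.

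The genes with the smallest adjusted p and at least 2-fold change lay partly outside these lists. Cp (chr3:19957054-20009145, plus strand), the ferroxidase ceruloplasmin, was at 47.0, 42.8, 42.5 and 46.7 CPM at day 7 and 249, 234, 233 and 217 CPM at day 21, 5.30-fold higher (log2 2.41 ± 0.09, adjusted p = 1.1e-06), the smallest value of the rising genes. Abca8b, a lipid transporter, was at 32.1, 24.1, 20.5 and 19.8 CPM and then 214, 221, 220.3 and 217 CPM, 9.19-fold higher. Enpp2, autotaxin, which makes lysophosphatidic acid, rose 3.31-fold, from 68.6, 72.5, 71.6 and 71.1 to 210.1, 258, 215 and 239 CPM, the GABA transaminase Abat 2.67-fold, Tmem131 2.99-fold, the exchange factor Dock11 3.14-fold and Megf9 2.85-fold. Of these, Cp and Abca8b ended at log2 0.09 (adjusted p = 0.27) and 0.20 (adjusted p = 0.069) against day 0, and Dock11 and Tmem131 2.13-fold and 1.80-fold above it. On the falling side, beside Tk1, Rrm2, Cthrc1, Mest and Mcm3, stood muscle genes. Itgb1bp2, melusin, was at 18.97, 28.4, 36.6 and 34.3 CPM and then 0.473, 0.463, 0.480 and 0.755 CPM, 53.2-fold lower (adjusted p = 3.1e-06). Popdc3, a membrane protein of striated muscle, fell 11.1-fold, Fndc5, the precursor of irisin, 6.58-fold, Klhl31 11.01-fold and Arpp21, an RNA-binding phosphoprotein, 16.8-fold, from 43.4, 45.5, 56.2 and 55.5 to 2.10, 3.27, 2.18 and 4.15 CPM.

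The largest rises by fold, among genes of at least 10 CPM at day 21, included epithelial and matrix genes. The keratin Krt17 was at 0.263, 0.466, 0.902 and 0.455 CPM at day 7 and 6.47, 27.3, 14.5 and 11.8 CPM at day 21 (28.98-fold by the fit, adjusted p = 8.0e-05), highest in wild type 2, and Krt5 at 0.0239, 2.07, 0.426 and 0 and 8.09, 23.6, 13.2 and 10.8 CPM. At day 0 Krt17 was at 94.8, 106, 0 and 0 CPM, at 0 in both libraries labelled knockout. Krt15 rose from 1.83 ± 2.62 to 23.1 ± 8.53 CPM (mean ± SD, n = 4). Without the day 7 library labelled wild type 2, which held most of the Krt5 and Krt15 of its day, their log2 changes were 6.46 and 5.45, against 4.46 and 3.66. These keratins mark skin epithelium, and the part of such cells was not tested. The teneurin Tenm2, a synaptic adhesion protein, rose 17.6-fold, from 1.005, 0.440, 1.10 and 1.20 to 9.30, 13.1, 17.1 and 25.4 CPM, the plakin Ppl 15.96-fold, the laminin chain Lama3 13.6-fold, tenascin X (Tnxb) 9.15-fold and the ligand Bmp3 9.85-fold. Fam132b, erythroferrone (also called myonectin), was at 10.02, 7.73, 12.8 and 11.5 CPM and then 108, 167, 91.8 and 142 CPM, 12.3-fold higher (adjusted p = 7.0e-06), and overshot its day 0 values of 28.9, 31.5, 31.6 and 35.4 CPM by 3.995-fold. Among the largest falls by fold were Mmp10, Mmp13, Itgb1bp2, myomixer (Gm7325), Chrng, Myh3, Actc1, Tnni1 and Chrnd, described above, with Murc, a caveolar protein of muscle (27.1-fold), and the histone gene Hist1h2ao, which was at 9.62, 13.3, 18.2 and 12.1 CPM and then 0, 1.76, 0 and 0 CPM. Hist1h2ao has near-identical copies between which reads could be split.

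Set against day 0, day 21 was closer to rest than day 7 but not the same. Of 15890 genes tested, 7289 (45.9%) were called between day 21 and day 0 and 30.6% did not overlap; 3977 higher (25.0%) and 3312 lower (20.8%) were called, or 3963 higher and 2118 lower by limma on log2(TPM + 0.1), and 1742 by at least 2-fold. That contrast shares the day 21 libraries with the one above, so the 2 are set side by side and not correlated, and it averages day 0 libraries of genotypes that differ there. Day 21 and day 0 libraries correlated with r of 0.928 to 0.944, and day 7 and day 0 libraries with 0.869 to 0.890. Within day 0 r was 0.937 to 0.984, over 6 pairs that include pairs across the labelled genotypes, which differ there. The overlap with that range therefore does not place day 21 within the spread of like libraries. On the first principal component, which held 52.9% of the variance of 500 variable genes, day 7 libraries lay at 45.3 to 52.8, day 21 libraries at -20.2 to -3.96 and day 0 libraries at -42.0 to -32.4. By list, the median against day 0 went from 2.03 at day 7 to 0.13 at day 21 for DNA synthesis, from 1.03 to 0.01 for G1 genes, from -0.80 to 0.03 for immediate early genes and from -0.61 to 0.04 for the clock. These medians cover members on both sides of day 0: 9 higher and 3 lower of 30 for DNA synthesis, 6 and 5 of 19 for G1 genes, 8 and 9 of 29 for immediate early genes, and 6 and 1 of 19 for the clock. The mitosis median went from 3.90 to 0.56, but the mitosis sums before injury were 201, 197, 77.7 and 79.9 CPM, split by labelled genotype, and of the day 21 sums given above only that of wild type 2 lay above this range. The median stayed on the same side of day 0, nearer to it, for commitment (2.99 to 0.86), the sarcomere (4.56 to 1.49), imprinted genes (1.64 to 0.66) and mitochondrially encoded genes (-1.34 to -0.58). It hardly moved for matrix (1.16 to 1.22). It moved away from day 0 for chemokines and NF-kB targets (0.18 to 0.85), quiescence genes (0.12 to 0.61) and nuclear respiratory genes (0.00 to -0.57). The summed CPM of the chemokine and quiescence lists, by contrast, lay below every day 0 library at day 7 and above every one at day 21. The median crossed day 0 for sterol synthesis (-1.10 to 0.30), integrins (-0.52 to 0.33) and the proteasome (0.49 to -0.25).

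**Figure D5:**
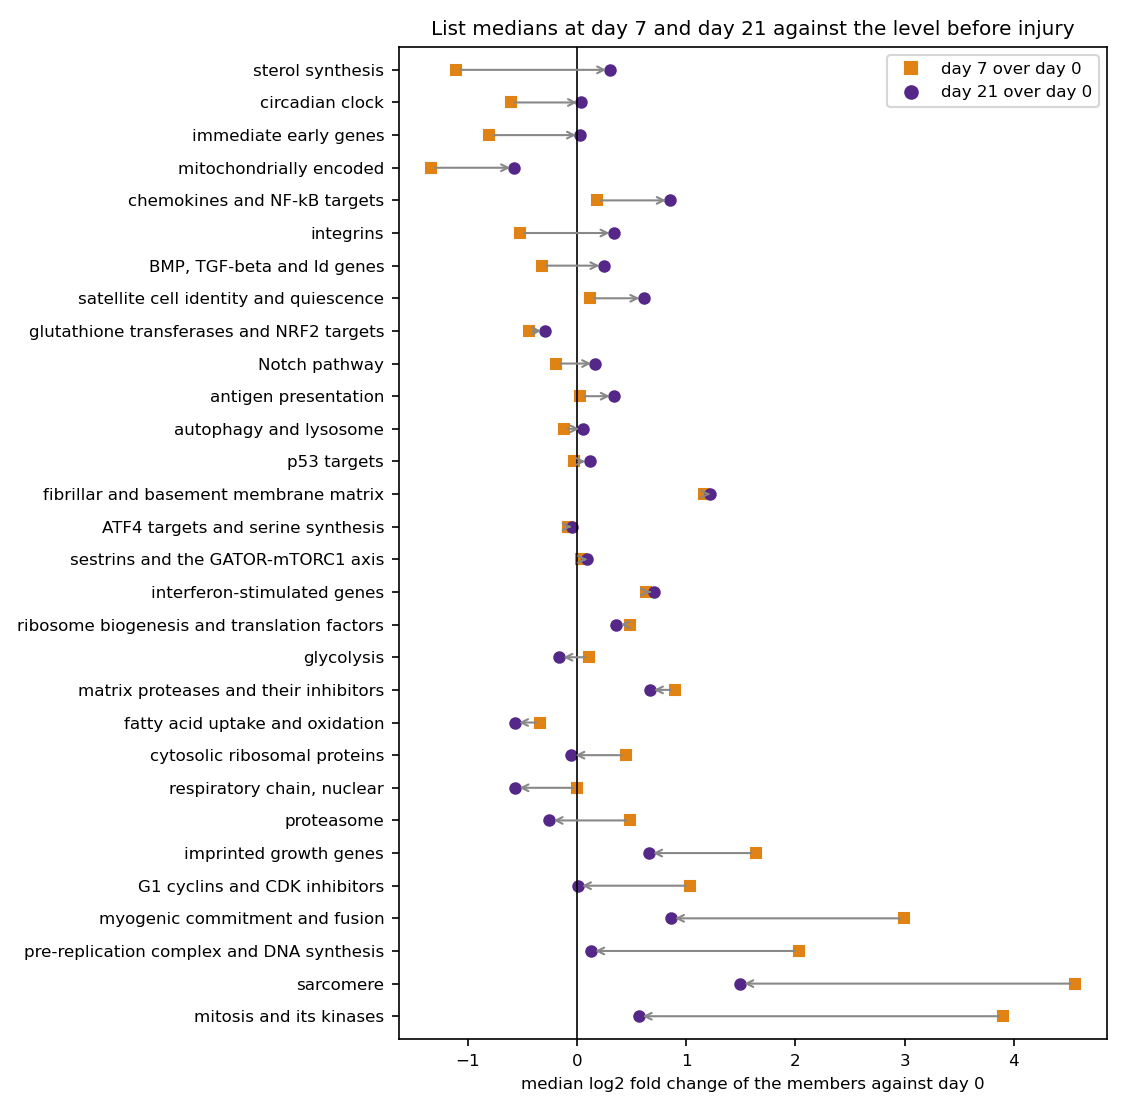
Median log2 fold change of the members of 30 lists against day 0 (horizontal axis), with squares for day 7, circles for day 21, arrows from one to the other and a line at 0. The arrow of the sarcomere runs from 4.56 to 1.49, that of DNA synthesis ends at 0.13, and that of nuclear respiratory genes leads away from 0 to -0.57.

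Whether the change between the days differed by labelled genotype was tested with an interaction. Of 15458 genes, 0 were called by edgeR's quasi-likelihood test, 1285 had an unadjusted p under 0.05, and DESeq2 called 147. As 2 day 21 libraries carry Sesn2 levels against their labels, this count does not compare genotypes. With libraries labelled wild type only, 5174 genes were called between the days, and with those labelled knockout only, 6352.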

How the data were processed

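Bulk RNA of sorted muscle stem cells was sequenced as single-end reads of 76 bases, per the labels. The authors deposited estimated counts per gene (30154 genes), TPM, and regularised log2 values corrected for a batch that is not named. Kallisto 0.46.1 and the builds mm10 and GRCm38.p6 stand in the submitters' processing notes; other steps are not given in the sources used here. Estimated counts, rounded to whole numbers, were fitted with edgeR 4.0.16 in R 4.3.3: TMM scaling, filterByExpr by day, 1 mean per day, quasi-likelihood test, Benjamini-Hochberg adjustment over all genes, called at an adjusted p under 0.05. Day 21 against day 0 and the interaction used 1 mean per labelled genotype and day. Results for libraries labelled wild type only or knockout only are contrasts within the interaction fit of 8 libraries. Their filter, scaling and spread come from both labelled genotypes. CPM are on the TMM scale of all 12 libraries. Folds come from the fit, and errors of log2 changes are standard errors. On simulated counts for 14659 genes, edgeR called 84 of 100 genes changed by log2 1 and 98 of 100 changed by log2 2, with 5 false calls among 187. For the genotype interaction, 23 and 68 of 100 such genes were called. Only these genes were changed, whereas 52.4% of genes were called in the data. The simulated spread came from the fit with 1 mean per labelled genotype and day. It leaves out the spread between genotypes pooled within a day, so these rates may not hold for the pooled test. Alternatives used DESeq2 1.42.0 and limma 3.58.1 on log2(TPM + 1), log2(TPM + 0.1) and the deposited log2 values.

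Named genes were the 10 rising and 10 falling with the smallest adjusted p (at least 2-fold, no overlap), the 10 and 10 with the largest fold (called, no overlap, at least 10 CPM on the higher day; unnamed gene models passed over), up to 8 called members per list with the smallest adjusted p and members needed to describe a list, and the sestrins, Pax7, Myf5, Myod1, Myog and Mki67. The members and lists were chosen with earlier results of these data known. Genes were placed with GENCODE M21, which holds 14534 of the 14632 tested, and counts are not stated to use strand. A few listed genes are not analysed here.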

Additional observations from a re-analysis of the deposited data

Results flagged for a closer look

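In 627 sets of 4 libraries of 1 day, 1 for each named gene and day above the floor and 1 for each summed list and day, 29 (4.63%) had a library far from the other 3, by Dixon's criterion at 95% for a gap relative to the range. Chance alone flags about 1 in 20. The library was the day 21 one labelled wild type 2 in 14 of the 29, and the day 21 one labelled knockout 2 in 5.

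Wild type 2 of day 21 was high for cell cycle genes, with Cdk1 at 8.50 CPM (others 1.92 to 2.86), Ccnb1 at 13.3 (3.15 to 4.67), Aurkb at 5.38 (0.960 to 1.42), Top2a at 23.5 (5.98 to 8.01), Mki67 at 20.9 (6.10 to 7.38), the mitosis sum at 328 (119.7 to 136) and the histone gene Hist1h2ao at 1.76 (the others at 0). It was also high for the Notch target Heyl at 403 CPM and the complex II gene Sdhd at 137 CPM. It was low for Col1a2 at 8345 CPM (13573 to 13685), Icam1 at 229 CPM (493 to 534), Tgfbr1 at 128 CPM (174 to 180.4), Skil at 351 CPM (386 to 391) and the Schwann sum at 1656 CPM (2228 to 2332).

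Knockout 2 of day 21 was high for Myh3 at 22.5 CPM (others 0.850 to 1.56), Itgb4 at 168 CPM, Mtor at 52.8 CPM and Itgb1bp2 at 0.755 CPM, and low for Rrm2 at 15.1 CPM. Wild type 1 of day 21 was high for Sesn3 at 2.36 CPM and low for Abat at 95.96 CPM and the immediate early sum at 25843 CPM.

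At day 7, knockout 1 was high for Lamb2 at 675 CPM, Notch3 at 211 CPM and Itgb8 at 10.7 CPM, knockout 2 for titin (Ttn) at 412 CPM and wild type 2 for Krt15 at 5.74 CPM (others 0.292 to 0.694). At day 0, E2f1 was low in wild type 2 at 1.90 CPM and Il6 high in wild type 1 at 67.2 CPM.

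Tpm1 moved in opposite directions by label: both day 21 libraries labelled wild type were above both of day 7, the mean being 1.41 times as high, and both labelled knockout were below theirs. The difference was not called by the interaction test, and 1 of the 2 libraries of each labelled genotype at day 21 has Sesn2 against its label.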

How the results depend on the processing

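The count of 7670 genes between day 21 and day 7 ran from 5174 to 9028 over 24 alternatives. The lowest was the contrast of libraries labelled wild type only, the highest the fit of 12 libraries with 1 mean per labelled genotype and day. Leaving out 1 library gave 6812 to 7931, and leaving out the 2 libraries against their label 5762. Requiring 2-fold left 2876, and 1742 of the 7289 between day 21 and day 0, which ran from 5776 to 7362 leaving out 1 library. The interaction count of 0 became 147 by DESeq2 and 38 in a fit of 12 libraries. Deviations of same-labelled, same-numbered libraries of the days correlated at -0.09 to 0.12, against -0.13 to 0.18 for other pairs. With 2 day 21 libraries against their label, this check cannot tell whether libraries were paired. With the replicate block 7269, 6990 and 0 genes were called, 1136 at an unadjusted p under 0.05 in the last. Of 172 named genes called, 154 stayed called in the same direction in each alternative that tested the gene. Mtor reversed, to log2 -0.072 with the length offset (7183 genes called), -0.16 by limma on log2(TPM + 0.1), -0.14 on log2(TPM + 1) with and without a filter, and -0.0766 on the deposited log2 values; the cause was not tested. In all, 31 of 7670 called genes had the opposite sign with that offset, and 0 were called both ways. The list of ribosomal proteins had 30 to 46 falling members leaving out 1 library, 13 in the fit of 12 libraries with 1 mean per day. In the 2 contrasts within 1 labelled genotype, Ccnd1, H2-K1, Itga5, Itga7, Cd74 and Slbp were called in neither. With 4 libraries a day, low genes such as Mmp10 and the keratins carry wide errors, and the floor of 3 counts covers counting error only.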

Other observations

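Gene groups outside the lists were not searched. One further value concerns the length of transcripts. Of the 7670 genes called on counts, 23 changed by more than 2-fold between the fit on counts and the fit with an offset for gene length, among them Mtor, whose counts and TPM are given above.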
